A study of Saccharomyces cerevisiae with 12 samples.

Results

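The genes described here are 47 nuclear genes of budding yeast that encode subunits of the mitochondrial ATP synthase, the respiratory complexes and the enzymes of the citric acid cycle. They were taken from a given list, which was set with earlier results of these data known, so their shift as a group is described and not tested. Each gene was read through 1 probe set of the Affymetrix yeast S98 array, that with the highest mean over the 12 arrays, so the 47 genes are 47 of the 9275 probe sets tested. All 47 had a probe set, 45 had only 1, and *ATP14* and *QCR8* had 2. They comprised 11 ATP synthase genes, 9 genes of complex IV, 9 of complex III, the 2 cytochrome *c* genes, 4 genes of complex II, 2 NADH dehydrogenase genes and 10 citric acid cycle genes.

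RNA was compared between 4 haploid strains of the BY4742 background, which are of the alpha mating type and carry mutations in the marker genes *HIS3*, *LEU2*, *LYS2* and *URA3*. The *rad4Δrad23Δ* double mutant was made from the *rad23Δ* strain by exchanging *RAD4* for a *HIS3* fragment, whereas the *rad23Δ* (Y10278), *rad4Δ* (Y16158) and wildtype (Y10000) strains came from the Euroscarf collection. Each genotype is thus 1 strain. All cultures were untreated and were harvested from YPD, a rich medium with glucose, at an optical density of 0.5 to 0.6. Each strain had 3 arrays from separate cultures. The comparison addresses what loss of Rad4, of Rad23 or of both does to transcript levels in the absence of UV, since Rad4 and Rad23 form the damage-binding complex of nucleotide excision repair.

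The values are log2 signals, and a difference of 1 between strains is a doubling. In total RNA, a higher share of cells with a transcript and more transcript per cell cannot be told apart. The array medians lay between 5.83 and 5.90. The labels of 2 arrays went against the signal of the deleted gene. *RAD4* read 3.42 on the array labelled wildtype replicate 3, against 5.11 and 5.12 on the other wildtype arrays. It read 5.47 on the array labelled *rad4Δ* replicate 2, against 3.49 and 3.01 on the other *rad4Δ* arrays. A probe set with no gene name was at 12.18 on that wildtype array and at 4.28 on that *rad4Δ* array, again the reverse of the other arrays of each label. The arrays kept their labels in what follows, and the counts and medians over the genes and over their roles are also given without both of them, as are single genes where this bears on the value. Markers of alpha cells read between 9.20 and 12.21, and those of **a** cells between 2.99 and 6.35, on all 12 arrays. *RAD23* read between 3.66 and 4.88 on the 6 arrays labelled as lacking it, and between 9.32 and 9.82 on the other 6. One double mutant array, replicate 2, had 53 probe sets more than 2 below their own median over the 12 arrays, against 0 to 9 on the other arrays. None of the 47 genes was among them, and the farthest member was *ATP14* at -0.49.

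The citric acid cycle oxidises acetyl groups in the mitochondrial matrix and passes the electrons to NADH and to succinate dehydrogenase, which is complex II of the respiratory chain. Budding yeast lacks the proton-pumping complex I and feeds electrons from NADH to ubiquinone through single-subunit dehydrogenases. Complex III passes them to cytochrome *c*, complex IV passes them to oxygen, and ATP synthase uses the resulting proton gradient to make ATP. Glucose keeps many of these genes low, and the Hap complex, in which Hap4 carries the activating domain, raises their transcription when glucose is scarce.

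The 3 *rad4Δrad23Δ* arrays stood highest for these genes as a group. The median deviation of the 47 genes from their own means over all arrays was 0.15, 0.23 and 0.13 on the double mutant arrays. It was -0.10, -0.09 and 0.01 on the *rad23Δ* arrays, -0.10, -0.01 and -0.17 on the *rad4Δ* arrays and -0.04, 0.13 and -0.18 on the wildtype arrays. The array wildtype replicate 2, at 0.13, reached the lowest double mutant array, so the groups touched. Over all 9275 probe sets the same median was between -0.02 and 0.02 on every array. Of the 47 genes, 46, 43 and 38 were above their own mean on the double mutant arrays, against 34 on wildtype replicate 2. The remaining 8 arrays had 6 to 25.

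**Figure D1:**
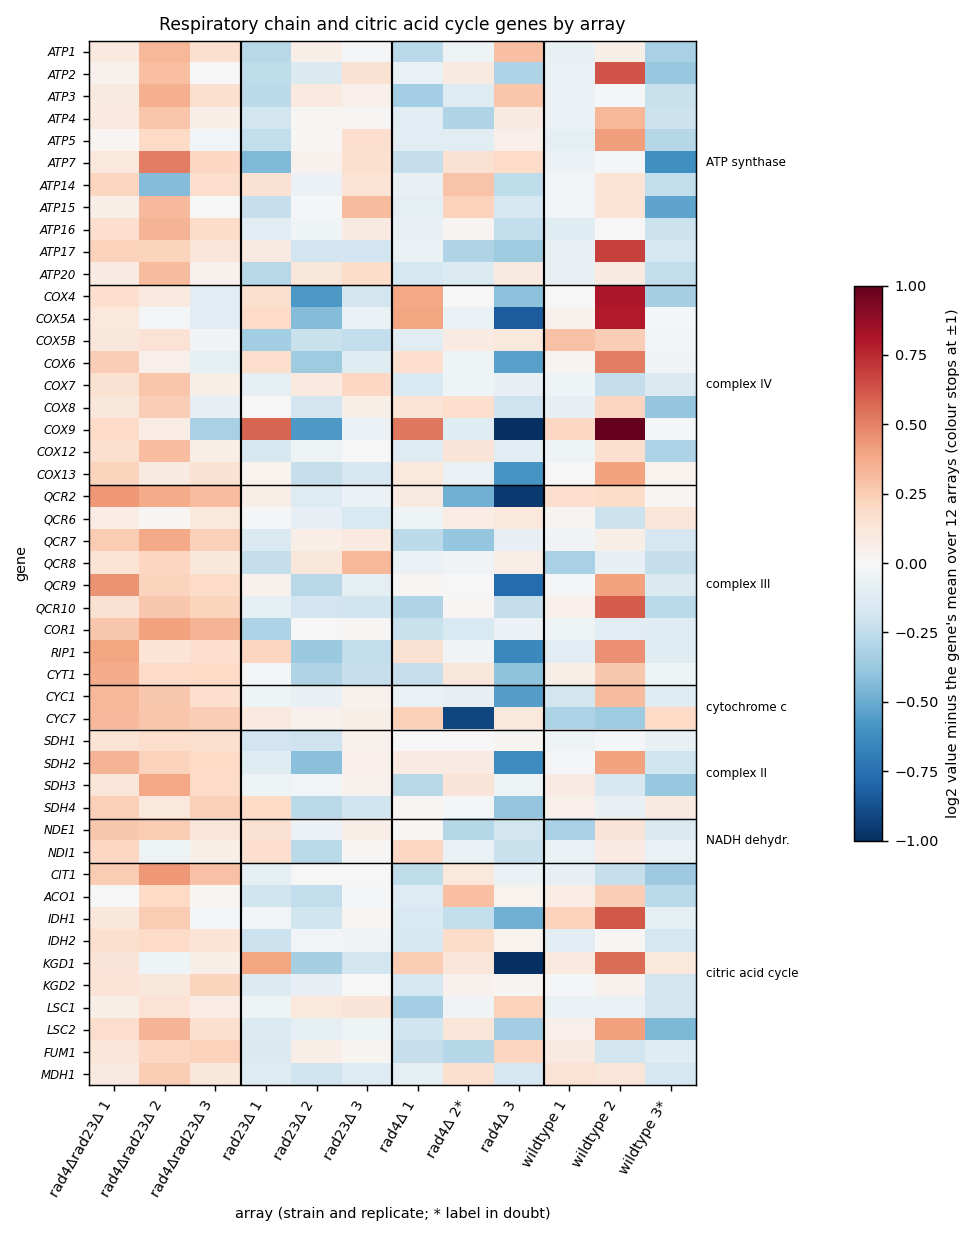
Each row is one of the 47 genes and each column an array, and the colour is the log2 value minus the gene's mean over the 12 arrays (the colour scale stops at 1 and -1). Horizontal lines separate the roles, vertical lines the strains, and asterisks mark the arrays whose labels are in doubt. Red prevails in the double mutant columns, where 46, 43 and 38 genes were above their mean, and the strongest colours lie on *rad4Δ* replicate 3 and wildtype replicate 2.

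None of the 47 genes passed the test in any of the 6 comparisons (adjusted p under 0.05, limma with Benjamini-Hochberg adjustment over all 9275 probe sets), so every difference below is a measured value and not a called change. In *rad4Δrad23Δ* against wildtype, 0 of 47 genes were called, where 0.647% of all probe sets were. At an unadjusted p under 0.05, 11 genes were higher and 0 lower, beside 5.52% and 5.56% of all probe sets. Of the 47 differences, 40 were above 0, against 44.1% of all probe sets. The median difference of the genes was 0.20, against -0.02 over all probe sets, with a range of -0.42 (*COX9*) to 0.56 (*CIT1*). All 3 double mutant arrays lay above all 3 wildtype arrays for 18 genes, where 11.6% of all probe sets did, and below them for 0 genes, where 13.3% did. Without the 2 arrays in doubt, 32 differences were above 0 beside 48.5% of all probe sets, the median was 0.09, and 1 gene, *CYC7*, was called (0.787% of all). At an unadjusted p under 0.05 there were then 7 higher and 0 lower genes (4.33% and 4.91% of all).

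Against *rad23Δ*, the double mutant showed a more even shift. No gene of the 47 was called (0.873% of all probe sets), yet 45 differences were above 0, against 46.1% of all. The median was 0.25, against -0.01 over all probe sets, and the range ran from -0.09 (*ATP14*) to 0.44 (*COR1*). Unadjusted p was under 0.05 for 10 genes, each higher (5.68% of all probe sets were), and for 0 lower genes (4.59%). The arrays did not overlap for 26 genes, all higher in the double mutant, against 10.4% of all probe sets in that direction and 9.93% in the other. This comparison holds neither array in doubt, and the median was 0.25, with 0 genes called (1.35% of all probe sets), also when these were left out of the fit. Then 14 genes were higher and 0 lower by unadjusted p (5.93% and 4.77% of all).

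Against *rad4Δ*, 46 of 47 differences were above 0 (45.4% of all probe sets) and none was called (0.765% of all). The median was again 0.25, against -0.02 over all probe sets, with a range of 0.00 (*ATP14*) to 0.82 (*QCR2*). At an unadjusted p under 0.05, 15 genes were higher and 0 lower, beside 5.91% and 4.92% of all. The double mutant arrays lay above all *rad4Δ* arrays for 20 genes (7.73% of all) and below for 0 (9.46%). With both arrays in doubt left out, all 47 differences were above 0, the median was 0.29, and 0 genes were called (1.25% of all), with 16 higher and 0 lower by unadjusted p (6.25% and 5.23% of all). The 3 comparisons of the double mutant share its arrays, so their counts are not independent of each other.

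As labelled, the medians of the single mutants were close to those of all probe sets, and more so than without the arrays in doubt. In *rad23Δ* the median difference was -0.03, against -0.01 over all probe sets, and 17 of 47 differences were above 0 (46.4% of all). None was called (0.28% of all probe sets), an unadjusted p under 0.05 was reached by 0 genes that were higher and 1 that was lower (3.06% and 4.09% of all), and the arrays did not overlap for 1 higher and 1 lower gene (5% and 6.5% of all). In *rad4Δ* the median was -0.05, against 0.00 over all probe sets, with 19 differences above 0 (48.6% of all). None was called, as for all probe sets (0%), an unadjusted p under 0.05 was reached by 0 higher and 2 lower genes (1.43% and 2.73% of all), and 2 higher and 1 lower gene did not overlap (2.53% and 2.93% of all). Without the arrays in doubt the medians were -0.09 for *rad23Δ* and -0.18 for *rad4Δ*, each with 11 of 47 differences above 0, beside 51% and 52.4% of all probe sets. The *rad4Δ* median was then about as far below 0 as the labelled median of the double mutant was above it. With these arrays left out, 1 gene was higher and 7 lower by unadjusted p in *rad23Δ* (3.8% and 4.8% of all), and 1 was higher and 9 lower in *rad4Δ* (4.01% and 5.05% of all), with 0 genes called in either (0.658% and 0.431% of all).

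The interaction was taken as the difference of the double mutant from *rad23Δ* minus the difference of *rad4Δ* from wildtype, which is 0 where the log2 effects of the deletions add. It was above 0 for 43 of 47 genes (48.4% of all probe sets), with a median of 0.25 against -0.01. None of the 47 was called (0.0863% of all), and at an unadjusted p under 0.05 there were 13 genes above 0 and 0 below (5.14% and 3.77% of all). Without the arrays in doubt the median was 0.42, 45 genes were above 0, 1 gene, *CYT1*, was called (1.19% of all), and 18 were above 0 and 0 below at an unadjusted p under 0.05 (6.91% and 5.23% of all). The 95% interval of a difference reached a median of 0.34 to each side (0.20 to 0.99 over the genes), and that of an interaction 0.48 (0.28 to 1.39), so most of the shifts described here are within the precision of 3 arrays per strain.

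**Figure D2:**
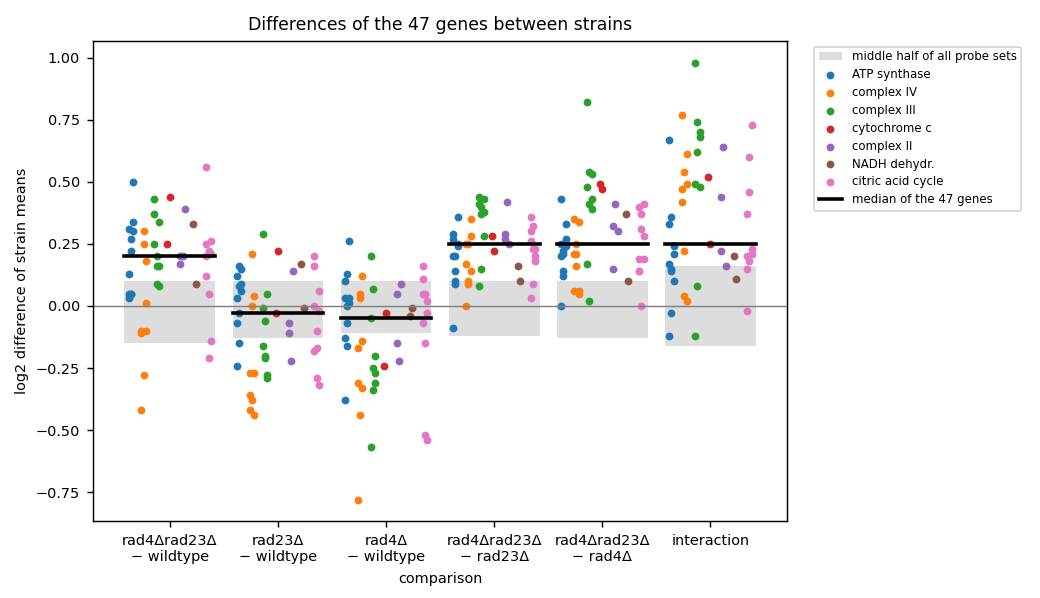
Each point is 1 of the 47 genes, its height the log2 difference of strain means (or the interaction), coloured by role, for the 6 comparisons along the horizontal axis. Black lines are the medians of the 47 genes, 0.20, -0.03, -0.05, 0.25, 0.25 and 0.25 in the plotted order, and grey boxes span the lower to the upper quartile of all 9275 probe sets. In the comparisons of the double mutant the black lines lie above the grey boxes.

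All 3 double mutant arrays lay above the other 9 arrays for 8 of the 47 genes, where 259 of all probe sets (2.79%) did, and below the other 9 for 0, where 2.23% did. The 8 genes were *CIT1* and *KGD2* of the citric acid cycle, *SDH1* of complex II, *COR1*, *QCR2* and *QCR7* of complex III, the cytochrome *c* gene *CYC7* and the ATP synthase gene *ATP16*. Every role except complex IV and the NADH dehydrogenases was thus represented.

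*CIT1* encodes the mitochondrial citrate synthase, which opens the citric acid cycle by joining acetyl-CoA to oxaloacetate. It read 10.32, 10.50 and 10.36 on the double mutant arrays, 9.97, 10.06 and 10.07 on the *rad23Δ* arrays, 9.81, 10.17 and 10.00 on the *rad4Δ* arrays and 9.98, 9.83 and 9.70 on the wildtype arrays. The double mutant arrays did not overlap with any other group, while the groups of the single mutants and wildtype ran into each other. The strain means were 10.39 ± 0.09 in the double mutant and 9.84 ± 0.14 in wildtype (SD, n = 3 each), a difference of 0.56 (standard error 0.11, 95% interval 0.31 to 0.80, 1.47-fold). Its adjusted p of 0.054 in limma was the smallest of the 47 in this comparison, just short of the threshold. The difference was 0.36 against *rad23Δ* and 0.40 against *rad4Δ* (adjusted p = 0.22 and 0.168, limma). *CIT1* crossed the threshold under some settings, with an adjusted p of 0.0352 in limma when probe sets with a mean under 6 were left out, and its adjusted p was 0.113 without the 2 arrays in doubt.

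The other cycle genes were more mixed. Against wildtype 8 of the 10 differences in the double mutant were above 0 (median 0.20), and against *rad23Δ* all 10 were (median 0.23), as against *rad4Δ* (median 0.24). Leaving out both arrays in doubt left 6 of 10 above 0 against wildtype, with a median of 0.08, and all 10 against *rad4Δ* (median 0.26). *KGD2*, the gene of the E2 subunit of alpha-ketoglutarate dehydrogenase, read 8.74, 8.72 and 8.83 in the double mutant, against 8.47, 8.52 and 8.60 in *rad23Δ*, 8.44, 8.65 and 8.63 in *rad4Δ* and 8.59, 8.65 and 8.42 in wildtype. *KGD2* differed from wildtype by 0.21, or by 0.14 without the arrays in doubt. The gaps between the double mutant and the nearest other arrays were small beside those of *CIT1*, and the largest of its differences was 0.23, against *rad23Δ*.

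*IDH1*, which encodes a subunit of the NAD-dependent isocitrate dehydrogenase, went the other way against wildtype. It read 7.78, 7.92 and 7.65 in the double mutant, 7.64, 7.47 and 7.69 in *rad23Δ*, 7.52, 7.42 and 7.19 in *rad4Δ* and 7.90, 8.29 and 7.57 in wildtype. All *rad4Δ* arrays lay below all wildtype arrays, at a difference of -0.54 (standard error 0.16, 95% interval -0.90 to -0.19), but the adjusted p was 0.906 in limma. Without the 2 arrays in doubt the difference was -0.74 (adjusted p = 0.176), and without wildtype replicate 2 it was -0.36. The gene of the partner subunit, *IDH2*, differed by 0.11 between *rad4Δ* and wildtype, with overlapping arrays, and by -0.02 without the arrays in doubt. The remaining gene below 0 in the double mutant against wildtype was *KGD1*, the E1 subunit of alpha-ketoglutarate dehydrogenase, at -0.21 (-0.28 without the arrays in doubt), a gene whose arrays also varied widely within strains.

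The 4 genes of complex II, the succinate dehydrogenase, were each higher in mean in the double mutant than in every other strain. Their differences were between 0.17 and 0.39 against wildtype, 0.25 and 0.42 against *rad23Δ*, and 0.15 and 0.41 against *rad4Δ*. With the arrays in doubt left out they were between 0.07 and 0.27 against wildtype and between 0.15 and 0.53 against *rad4Δ*. *SDH1*, the flavoprotein subunit, had the smallest spread within strains of all 47 genes (SD 0.0736). It read 7.65, 7.69 and 7.67 in the double mutant, 7.32, 7.31 and 7.56 in *rad23Δ*, 7.51, 7.51 and 7.54 in *rad4Δ* and 7.46, 7.50 and 7.44 in wildtype. The double mutant stood above all other arrays by a narrow margin, at 0.20 over wildtype (adjusted p = 0.431) and 0.27 over *rad23Δ* (adjusted p = 0.251, both limma).

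*SDH2*, the iron-sulfur subunit, had a larger difference with a wider spread. It read 8.44, 8.33 and 8.30 in the double mutant, 7.98, 7.68 and 8.15 in *rad23Δ*, 8.18, 8.18 and 7.47 in *rad4Δ* and 8.08, 8.50 and 7.90 in wildtype. The double mutant cleared both single mutants but not wildtype, whose replicate 2 was the highest of the 12 arrays. The difference from *rad23Δ* was 0.42 (standard error 0.20, 95% interval -0.03 to 0.87, adjusted p = 0.529 in limma).

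The NADH dehydrogenase *NDI1*, on the matrix side of the inner membrane, differed less between strains than between arrays of a strain. It read 7.44, 7.18 and 7.29 in the double mutant, 7.40, 6.96 and 7.24 in *rad23Δ*, 7.44, 7.16 and 7.01 in *rad4Δ* and 7.16, 7.31 and 7.16 in wildtype. The 4 groups overlapped, and the largest of its differences between strains was 0.10 (95% interval -0.20 to 0.41, against *rad23Δ*). *NDE1*, which oxidises cytosolic NADH from the outer face of the inner membrane, averaged 9.81 ± 0.08 in the double mutant, 9.65 ± 0.11 in *rad23Δ*, 9.44 ± 0.15 in *rad4Δ* and 9.48 ± 0.23 in wildtype (SD, n = 3 each). Its double mutant arrays cleared those of *rad4Δ*.

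Complex III, which carries electrons from ubiquinol to cytochrome *c*, held several of the larger differences of the double mutant. Each of its 9 genes was above 0 in all 3 comparisons of the double mutant, with medians of 0.20 against wildtype, 0.38 against *rad23Δ* and 0.43 against *rad4Δ*. Both single mutants had 2 of the 9 above 0 against wildtype, with medians of -0.16 in *rad23Δ* and -0.25 in *rad4Δ*. For the interaction the median was 0.62, with 8 of 9 above 0, where 48.4% of all probe sets were. At an unadjusted p under 0.05, 6 of the 9 were above 0 (5.14% of all probe sets), and 0 were called. Leaving out the arrays in doubt put *QCR10* at -0.12 against wildtype, so that 8 of 9 were above 0 there (median 0.16), while all 9 stayed above 0 against *rad4Δ* (median 0.48). The medians against wildtype were then -0.21 in *rad23Δ* and -0.42 in *rad4Δ*, and that of the interaction was 0.79.

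*COR1*, which encodes a core subunit of complex III, read 7.53, 7.66 and 7.60 in the double mutant, 6.95, 7.26 and 7.27 in *rad23Δ*, 7.04, 7.11 and 7.20 in *rad4Δ* and 7.21, 7.15 and 7.14 in wildtype. The double mutant arrays were the 3 highest by a clear gap and the other 9 did not separate by strain. Its difference was 0.43 against wildtype (standard error 0.10, 95% interval 0.20 to 0.66, adjusted p = 0.107 in limma). Against *rad23Δ* it was 0.44 and against *rad4Δ* 0.48 (adjusted p = 0.094 and 0.0627, limma). Leaving out the 2 arrays in doubt gave 0.42, 0.44 and 0.48.

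*QCR7*, a small subunit needed for assembly of the complex, came closest to the threshold of all genes and comparisons. It read 10.05, 10.17 and 10.03 in the double mutant, 9.65, 9.86 and 9.89 in *rad23Δ*, 9.53, 9.41 and 9.71 in *rad4Δ* and 9.76, 9.85 and 9.63 in wildtype. The double mutant was again above all other arrays, and the *rad4Δ* arrays included the 2 lowest. The difference of 0.53 from *rad4Δ* (standard error 0.11, 95% interval 0.29 to 0.77, 1.45-fold) had an adjusted p of 0.0508 in limma. Without the 2 arrays in doubt it was 0.46 (adjusted p = 0.108), and without *rad4Δ* replicate 3 it was 0.61 and passed (adjusted p = 0.0377).

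The other core subunit gene, *QCR2*, had the largest difference in the set. It read 9.87, 9.81 and 9.75 in the double mutant, 9.51, 9.31 and 9.38 in *rad23Δ*, 9.53, 8.96 and 8.48 in *rad4Δ* and 9.61, 9.62 and 9.45 in wildtype. The double mutant was above every other array, and the *rad4Δ* arrays spread over about 1 log2 unit, from the level of *rad23Δ* and wildtype downwards. The double mutant exceeded *rad4Δ* by 0.82 (standard error 0.20, 95% interval 0.39 to 1.25, adjusted p = 0.0978 in limma) and wildtype by 0.25 (adjusted p = 0.676), and *rad4Δ* differed from wildtype by -0.57 (adjusted p = 0.906). The interaction was 0.98 (95% interval 0.37 to 1.59, adjusted p = 0.286). The *rad4Δ* arrays decided the size and the call. Without *rad4Δ* replicate 1 the difference from *rad4Δ* was 1.09 (adjusted p = 0.00567) and the interaction 1.25 (adjusted p = 0.0285), whereas without *rad4Δ* replicate 3 they were 0.57 (adjusted p = 0.148) and 0.73 (adjusted p = 0.32), and *rad4Δ* differed from wildtype by -0.32. Leaving out the arrays in doubt gave 0.81 and 1.02 (adjusted p = 0.191 and 0.248, limma).

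*CYT1* encodes cytochrome *c*1, the subunit that hands the electron to cytochrome *c*. It read 7.69, 7.51 and 7.52 in the double mutant, 7.31, 7.02 and 7.09 in *rad23Δ*, 7.09, 7.43 and 6.92 in *rad4Δ* and 7.38, 7.59 and 7.28 in wildtype. The double mutant cleared both single mutants and overlapped with wildtype. Its difference from each single mutant was 0.43, from wildtype 0.16, and the interaction was 0.70 (standard error 0.20, adjusted p = 0.278 in limma, the smallest of the 47). Without the array labelled *rad4Δ* replicate 2, the highest of its group at 7.43, and wildtype replicate 3, the interaction was 0.91 and passed (adjusted p = 0.0469).

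*QCR9*, the gene of another small subunit, read 8.75, 8.52 and 8.49 in the double mutant, 8.34, 8.02 and 8.20 in *rad23Δ*, 8.31, 8.30 and 7.53 in *rad4Δ* and 8.29, 8.70 and 8.16 in wildtype. As for *SDH2*, the double mutant cleared the single mutants while wildtype replicate 2 reached its level. The difference from *rad4Δ* was 0.54 and the interaction 0.74 (adjusted p = 0.344 and 0.491, limma). They were 0.28 and 0.48 without *rad4Δ* replicate 3, and 0.67 and 0.97 without the arrays in doubt. *RIP1*, the Rieske iron-sulfur protein, was read by a further control probe set on the array that did not enter the fit. The control differed between the double mutant and wildtype by 0.34, *rad23Δ* by 0.50 and *rad4Δ* by 0.52, and the gene's own probe set by 0.16, 0.37 and 0.41, so that both were above 0 each time.

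Yeast has 2 genes for cytochrome *c*, of which *CYC1* makes the main form and *CYC7* the form known for use at low oxygen. *CYC1* read 8.21, 8.14 and 8.04 in the double mutant, 7.83, 7.80 and 7.92 in *rad23Δ*, 7.81, 7.79 and 7.32 in *rad4Δ* and 7.69, 8.19 and 7.75 in wildtype. Its double mutant arrays cleared both single mutants, with differences of 0.28 from *rad23Δ* and 0.49 from *rad4Δ* (adjusted p = 0.604 and 0.227, limma), and overlapped with wildtype (0.25). With the arrays in doubt left out, the differences from *rad4Δ* and wildtype were 0.57 and 0.19.

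*CYC7* read 6.21, 6.16 and 6.13 in the double mutant, 5.98, 5.93 and 5.94 in *rad23Δ*, 6.12, 4.97 and 5.99 in *rad4Δ* and 5.57, 5.53 and 6.08 in wildtype. Its 3 lowest values were those of *rad4Δ* replicate 2 and wildtype replicates 1 and 2, the arrays on which the probe set without a gene name was also low. As labelled, the double mutant differed from wildtype by 0.44 (95% interval -0.10 to 0.98, adjusted p = 0.53 in limma). Without the 2 arrays in doubt the difference was 0.62 (standard error 0.09) and passed (adjusted p = 0.0175), that of *rad23Δ* was 0.40 (adjusted p = 0.139) and that of *rad4Δ* 0.51 (adjusted p = 0.113). The double mutant differed from *rad4Δ* by 0.47 as labelled and by 0.11 without them, and the interaction was 0.25 as labelled and -0.29 without them. On the chromosome *CYC7* lies near *RAD23*, with 1 protein-coding gene, *UTR4*, between them in the RefSeq annotation. The part of this neighbourhood in the *CYC7* values was not tested.

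**Figure D3:**
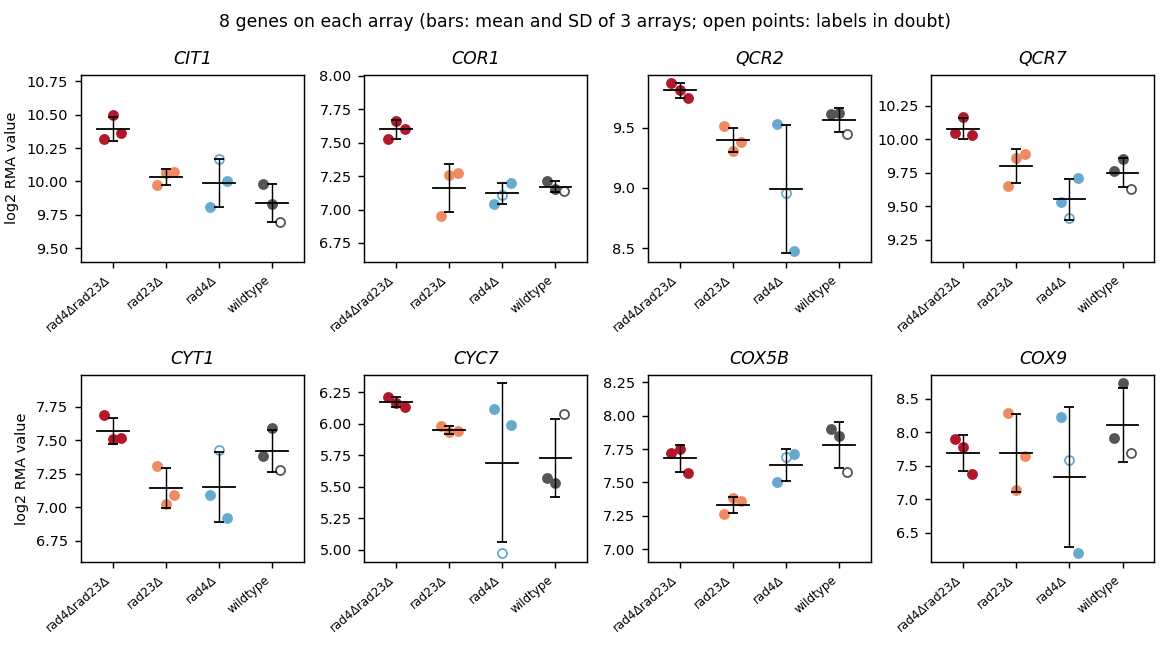
Log2 values of *CIT1*, *COR1*, *QCR2*, *QCR7*, *CYT1*, *CYC7*, *COX5B* and *COX9* on each array, by strain, with lines for the mean and SD of 3 arrays and open points for the arrays whose labels are in doubt. For *CIT1*, *COR1*, *QCR2*, *QCR7* and *CYC7* the double mutant points lie above all others. The *CYC7* values of 4.97 in *rad4Δ* and 6.08 in wildtype are the open points, each apart from its group.

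Complex IV, the cytochrome *c* oxidase, was the exception among the roles in the double mutant against wildtype, though not for the interaction. Against wildtype only 4 of its 9 genes were above 0 in the double mutant (median -0.10), 2 in *rad23Δ* (median -0.27) and 3 in *rad4Δ* (median -0.17). The differences of the double mutant from *rad23Δ* were above 0 for 8 genes (median 0.17) and those from *rad4Δ* for all 9 (median 0.21). The interaction was above 0 for all 9 (median 0.47, or 0.62 without the arrays in doubt). The 5 genes below 0 against wildtype in the double mutant were *COX4*, *COX5A*, *COX5B*, *COX6* and *COX9*. Leaving out the arrays in doubt gave 3 genes above 0 in the double mutant (median -0.19), 1 in *rad23Δ* (median -0.37) and 1 in *rad4Δ* (median -0.42) against wildtype, and 9 in the double mutant against *rad4Δ* (median 0.26). For *COX4*, *COX5A*, *COX6* and *COX9* the highest of all 12 arrays was wildtype replicate 2.

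*COX4*, an essential structural subunit, read 7.99, 7.92 and 7.71 in the double mutant, 7.98, 7.25 and 7.64 in *rad23Δ*, 8.21, 7.82 and 7.41 in *rad4Δ* and 7.82, 8.63 and 7.49 in wildtype. The groups overlapped throughout, and the difference of the double mutant from wildtype was -0.11 (95% interval -0.72 to 0.50), or -0.35 without the arrays in doubt. *COX9* encodes a small nuclear-encoded subunit and had the largest spread of the set. It read 7.90, 7.78 and 7.38 in the double mutant, 8.29, 7.13 and 7.65 in *rad23Δ*, 8.23, 7.58 and 6.19 in *rad4Δ* and 7.91, 8.73 and 7.69 in wildtype. The range within *rad4Δ* alone spanned nearly all other arrays, so its difference of -0.78 from wildtype (standard error 0.45, 95% interval -1.76 to 0.21) was the farthest from 0 in that comparison, as labelled, without clearing its own error (adjusted p = 0.906 in limma). The value turned on single arrays, at -0.21 when *rad4Δ* replicate 3 was dropped, -1.23 when replicate 1 of that strain was, and -0.47 without wildtype replicate 2, and was -1.11 without the arrays in doubt.

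*COX5A* and *COX5B* encode alternative forms of the same subunit, of which *COX5B* is known as the form used at low oxygen. *COX5A* read 7.79, 7.67 and 7.58 in the double mutant, 7.88, 7.25 and 7.62 in *rad23Δ*, 8.08, 7.62 and 6.85 in *rad4Δ* and 7.73, 8.48 and 7.67 in wildtype. Its groups overlapped, and *rad23Δ* differed from wildtype by -0.38 (standard error 0.29, adjusted p = 0.779 in limma), which became -0.12 without wildtype replicate 2, -0.21 without *rad23Δ* replicate 2 and -0.52 without the arrays in doubt. *COX5B* read 7.72, 7.75 and 7.57 in the double mutant, 7.26, 7.38 and 7.36 in *rad23Δ*, 7.50, 7.69 and 7.71 in *rad4Δ* and 7.90, 7.85 and 7.58 in wildtype. The 3 *rad23Δ* arrays were the lowest of the 12. *COX5B* in *rad23Δ* differed from wildtype by -0.44 (standard error 0.11, 95% interval -0.68 to -0.20), the largest difference of the 47 in that comparison and the smallest adjusted p (0.185, limma). The double mutant exceeded *rad23Δ* by 0.35 (adjusted p = 0.222, limma). Without the 2 arrays in doubt, *rad23Δ* differed from wildtype by -0.54 (adjusted p = 0.0672).

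All 11 ATP synthase genes were above 0 in the double mutant against wildtype (median 0.22, range 0.03 to 0.50), and 10 of 11 were against each single mutant (medians 0.20 and 0.22), *ATP14* being the exception. Without the arrays in doubt 7 of 11 were above 0 against wildtype (median 0.07, range -0.17 to 0.31), the genes below 0 being *ATP2*, *ATP5*, *ATP14* and *ATP17*, and all 11 were against *rad4Δ* (median 0.23). *ATP1*, the alpha subunit of the catalytic head, read 9.57, 9.80 and 9.63 in the double mutant, 9.19, 9.54 and 9.45 in *rad23Δ*, 9.20, 9.42 and 9.77 in *rad4Δ* and 9.40, 9.53 and 9.15 in wildtype. It cleared *rad23Δ* and wildtype, each by a small gap, and overlapped with *rad4Δ*. The difference from wildtype was 0.31 (standard error 0.16, adjusted p = 0.485 in limma), or 0.20 without the arrays in doubt.

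*ATP7*, a subunit of the peripheral stalk, had the largest difference from wildtype among these genes. It read 7.77, 8.17 and 7.87 in the double mutant, 7.22, 7.70 and 7.82 in *rad23Δ*, 7.42, 7.81 and 7.85 in *rad4Δ* and 7.60, 7.65 and 7.05 in wildtype. The lowest wildtype value was that of replicate 3, whose label is in doubt. With it the difference was 0.50 (95% interval 0.07 to 0.94, adjusted p = 0.376 in limma), and without both arrays in doubt 0.31 (adjusted p = 0.668). *ATP16*, the delta subunit of the central stalk, was steadier, with 10.26, 10.43 and 10.28 in the double mutant, 9.98, 10.05 and 10.18 in *rad23Δ*, 10.02, 10.12 and 9.85 in *rad4Δ* and 9.97, 10.10 and 9.88 in wildtype. Its double mutant arrays were the 3 highest, at 0.34 over wildtype, 0.25 over *rad23Δ* and 0.33 over *rad4Δ* (adjusted p = 0.247, 0.421 and 0.247, limma).

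*ATP14*, another stalk subunit, was read by a pair of probe sets. The brighter read 8.99, 8.34 and 8.95 in the double mutant, with the low value on replicate 2, against 8.93, 8.72 and 8.91 in *rad23Δ*. The dimmer read 8.64, 8.52 and 8.92 in the double mutant and 8.39, 8.77 and 8.67 in *rad23Δ*. The difference was -0.09 by the brighter and 0.08 by the dimmer probe set, so no direction can be given for this gene. The second probe set of *QCR8* lay between 4.40 and 4.81 on all arrays and differed by 0.00 between the double mutant and wildtype, where the brighter one differed by 0.37 (adjusted p = 0.321 in limma).

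Several of the genes varied more between arrays of 1 strain than a typical probe set did. The median SD within strains was 0.202 for the 47 genes and 0.171 for all probe sets, and 17 of the 47 (36.2%) lay above 0.234, the value that 25% of all probe sets exceeded. It was 0.67 for *COX9*, 0.458 for *KGD1*, 0.419 for *COX5A* and 0.406 for *COX4*. On wildtype replicate 2, 37 of the 47 genes were the highest of the 3 wildtype arrays, and on wildtype replicate 3, 37 were the lowest. Over all 12 arrays, 16 genes were highest on double mutant replicate 2 and 15 on wildtype replicate 2, and 15 were lowest on *rad4Δ* replicate 3 and 12 on wildtype replicate 3.

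The arrays also differed in a measure of RNA quality, the signal at the 3′ end of the *ACT1* control transcript minus that at its 5′ end, which is larger when transcripts are shortened. For *ACT1* it was 0.58, 0.66 and 0.56 on the double mutant arrays, 0.57, 0.72 and 0.60 in *rad23Δ*, 0.61, 0.76 and 0.89 in *rad4Δ* and 0.58, 0.30 and 0.61 in wildtype. The lowest value was that of wildtype replicate 2 and the highest that of *rad4Δ* replicate 3, the arrays with the highest and the lowest *COX9* value. In *rad23Δ*, *rad4Δ* and wildtype the array with the largest *ACT1* value had the lowest *COX9* signal and that with the smallest had the highest, whereas the double mutant arrays did not follow this order. The same measure on 2 other control transcripts ordered the arrays in part differently. For *SPT15*, wildtype replicate 2 was again the lowest array (1.17) and *rad4Δ* replicate 3 the highest (1.98), with the order of *COX9* kept in *rad23Δ* and *rad4Δ*, while the largest wildtype value (1.72) was on replicate 1, not on the array lowest for *COX9*. For *SRB4*, *rad4Δ* replicate 3 was the highest array (2.44), but wildtype replicate 2 was the highest of the wildtype arrays (1.88, against 1.75 and 1.60), opposite to *ACT1*. *KGD1* read 8.88, 8.71 and 8.81 in the double mutant, 9.15, 8.42 and 8.57 in *rad23Δ*, 9.01, 8.87 and 7.59 in *rad4Δ* and 8.85, 9.31 and 8.86 in wildtype, and its highest and lowest arrays were the same as those of *COX9*. *ATP1*, in contrast, was highest within *rad4Δ* on replicate 3, but in wildtype (9.40, 9.53 and 9.15) it kept the order of *COX9*. The part of RNA quality in these values was not tested.

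**Figure D4:**
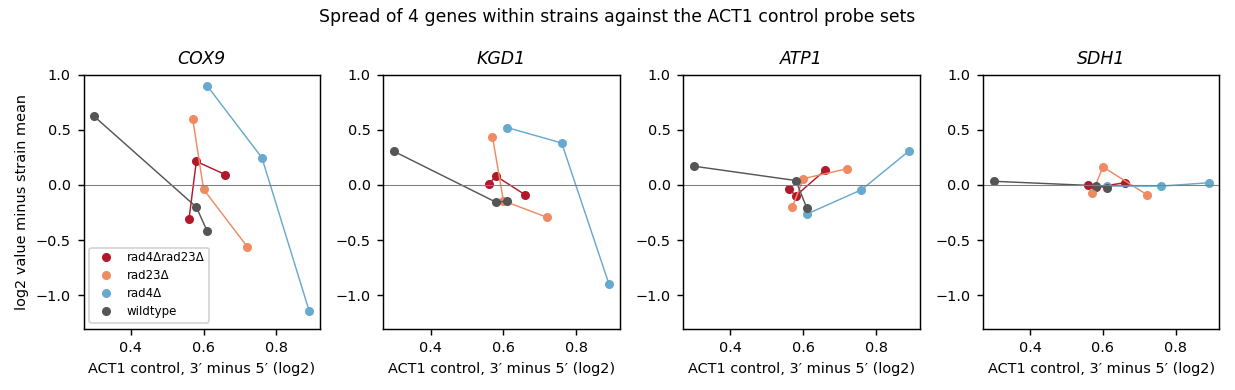
Log2 value minus the strain mean (vertical axis) of *COX9*, *KGD1*, *ATP1* and *SDH1* against the difference between the 3′ and 5′ control probe sets of *ACT1* (horizontal axis, log2), with lines joining the arrays of a strain. *COX9* falls to the right in *rad23Δ*, *rad4Δ* and wildtype, whereas *ATP1* falls in wildtype and rises in *rad23Δ* and *rad4Δ*. *SDH1* stays near 0 in all 4 strains except *rad23Δ* replicate 3.

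The genes of the Hap regulators were read on the same arrays. *HAP4* read 6.65, 6.64 and 6.71 in the double mutant, 6.75, 7.04 and 6.76 in *rad23Δ*, 6.82, 6.42 and 7.17 in *rad4Δ* and 6.21, 6.27 and 7.01 in wildtype. Like *CYC7*, it was low on wildtype replicates 1 and 2 and on *rad4Δ* replicate 2. The double mutant differed from wildtype by 0.17 as labelled (adjusted p = 0.802 in limma), and by 0.43 without the arrays in doubt (adjusted p = 0.30).

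*HAP2*, a DNA-binding subunit, read 5.86, 5.98 and 6.23 in the double mutant, 6.10, 6.14 and 5.83 in *rad23Δ*, 6.03, 6.24 and 6.27 in *rad4Δ* and 6.20, 5.87 and 6.40 in wildtype. *HAP3*, its partner, read 6.73, 6.62 and 6.44 in the double mutant, 7.05, 7.00 and 7.00 in *rad23Δ*, 6.75, 7.06 and 6.42 in *rad4Δ* and 6.86, 6.72 and 6.89 in wildtype. The *HAP3* arrays of the double mutant lay below those of *rad23Δ*, at -0.42 (adjusted p = 0.274 in limma), opposite to the respiratory genes. *HAP5*, the remaining DNA-binding subunit, read 5.50, 5.19 and 5.31 in the double mutant, 5.58, 5.04 and 5.21 in *rad23Δ*, 5.69, 5.57 and 4.68 in *rad4Δ* and 5.65, 5.88 and 5.41 in wildtype. *HAP1*, the haem-responsive activator of *CYC1* and *CYC7*, read 9.31, 9.88 and 9.67 in the double mutant, 8.97, 9.68 and 9.52 in *rad23Δ*, 8.94, 9.44 and 9.31 in *rad4Δ* and 9.20, 9.69 and 9.17 in wildtype, on a probe set that by its name can also bind related sequences. None of the 5 regulator genes was called in any comparison. As labelled, their median difference was -0.13 against wildtype, 0.00 against *rad23Δ* and -0.14 against *rad4Δ* in the double mutant. Without the arrays in doubt these medians were -0.01, 0.00 and 0.01, so the values below 0 depended on those arrays.

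Other lists of mitochondrial genes were read beside these, and no difference between lists was tested. In the double mutant the median of 43 mitochondrial ribosome genes was -0.04 against wildtype, -0.04 against *rad23Δ* and -0.01 against *rad4Δ*. That of 37 assembly factors was -0.05, 0.05 and 0.06 in the same order, and that of 13 carrier and porin genes -0.01, 0.07 and 0.00. None of these was called in any of the 6 comparisons. A list of 6 further ATP synthase subunits and inhibitors had medians of 0.16, 0.19 and 0.36, also with 0 calls, so that its median against *rad4Δ* was above that of the 47 genes. Among them *STF1*, which encodes a protein that stabilises the inhibited enzyme, read 9.82, 9.94 and 9.81 in the double mutant, 9.29, 9.25 and 9.24 in *rad23Δ*, 9.15, 9.41 and 8.96 in *rad4Δ* and 9.52, 9.61 and 9.07 in wildtype. The double mutant was above every other array, and without the arrays in doubt *STF1* passed against *rad23Δ* (0.60, adjusted p = 0.0139) and *rad4Δ* (0.80, adjusted p = 0.00451, both limma). As labelled it missed the threshold in both (adjusted p = 0.103 and 0.0591).

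Of 13 other dehydrogenase genes measured, 1 was called. *NDE2*, a second outer NADH dehydrogenase, read 4.63, 4.55 and 4.63 in the double mutant and 4.27, 3.57 and 3.75 in *rad23Δ*. It read 4.27, 4.28 and 4.09 in *rad4Δ* and 4.41, 4.27 and 4.16 in wildtype. All of these lie under 6, the limit used for dim probe sets. *NDE2* in the double mutant exceeded *rad23Δ* by 0.74 (adjusted p = 0.0485 in limma). Its adjusted p was 0.0676 without the 2 arrays in doubt, and among the fits that each dropped 1 compared array it was under the threshold only without *rad23Δ* replicate 1 (0.00667, up to 0.233 in the other cases). The list's medians were 0.04 against wildtype, 0.10 against *rad23Δ* and 0.05 against *rad4Δ*. Of the 8 mitochondrially encoded genes, *COX1* was between 9.89 and 10.83 and *OLI1* between 8.49 and 10.48 on the 12 arrays, both complex subunits, and 0 of 8 were called. The rest of this list, *COX2*, *COX3*, *COB*, *ATP6*, *ATP8* and *VAR1*, read only 2.28 to 4.44, so its medians rest mostly on dim probe sets. The list's medians in the double mutant were 0.17 against wildtype, -0.03 against *rad23Δ* and 0.24 against *rad4Δ*, and in *rad23Δ* against wildtype 0.31. The double mutant differed from wildtype by 0.65 for *COX1* and 1.01 for *OLI1*, the 2 largest of the list (adjusted p = 0.173 and 0.174, limma). For *OLI1* the low value of 8.49 was that of wildtype replicate 2, and without it the difference was 0.58.

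Genes used at low oxygen, 9 in all with *CYC7* and *COX5B* among them, had medians of -0.19, 0.02 and -0.04 in the double mutant against wildtype, *rad23Δ* and *rad4Δ*, with 0 calls. Against wildtype, leaving out the arrays in doubt gave 1 call in each direction in this list, *CYC7* higher and *DAN1* (a cell wall protein gene) lower in the double mutant (-0.68, adjusted p = 0.0463). General stress genes, which cells also raise as they leave logarithmic growth, had larger medians than the respiratory genes, 0.30, 0.51 and 0.41 over 15 genes. Calls in that list were *ALD3* (an aldehyde dehydrogenase with a close copy, *ALD2*, that its probes may also read) in all 3 comparisons, *PNC1* (a nicotinamidase) against wildtype and *rad23Δ*, and *HSP12* (a membrane-associated stress protein) against *rad23Δ*, each higher in the double mutant. *PNC1* was no longer called against wildtype once both arrays in doubt were left out (adjusted p = 0.0939, limma), while *HSP26*, a small heat shock protein gene, then was called lower (-0.53, adjusted p = 0.0336), opposite to the rest of these calls. Against the single mutants *HSP26* was then called higher in the double mutant, as were *HSP12* against *rad4Δ* and *GPH1* against *rad23Δ*. With any 1 of the compared arrays left out, the calls of *PNC1* and *HSP12* missed the threshold (adjusted p of 0.0548 or more). Those of *ALD3* did so without double mutant replicate 3 in all 3 comparisons, and without replicate 2 against wildtype and *rad4Δ* (adjusted p between 0.0512 and 0.0734). *ALD3* was also dim, between 3.87 and 4.77 on all arrays. The part of growth stage in the values of the respiratory genes was not tested.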

How the data were processed

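Total RNA of 12 untreated cultures was labelled and hybridised to Affymetrix yeast S98 arrays. Per the labels, the arrays were scanned with Microarray Suite 5.0. The values deposited by the authors are log2 signals with 2 decimals, made by robust multichip averaging (RMA: background correction, normalization between arrays, 1 summary per probe set) in affy 1.5.8, Bioconductor 1.5 and R 2.0.1. No filter is stated, and RMA tends to compress differences of dim probe sets.

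Of 9335 probe sets, 60 Affymetrix controls were left out. Names came from the platform annotation, where 6504 probe sets had 1 gene, 328 several and 2443 none. A mean per strain was fitted to all 12 arrays and 9275 probe sets with limma 3.58.1 in R 4.3.3 (residual degrees of freedom 8, prior 4.03), with no covariate, filter or further normalization. Every adjusted p is from limma's moderated test with Benjamini-Hochberg adjustment over all probe sets, at a threshold of 0.05 and no fold minimum. The code was tested on simulated data. Precision was limited by the 3 arrays of each strain.

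Array values were given for the 3 members with the largest differences in each comparison, the isoform pairs, *ATP1*, *COX4*, *QCR2*, *SDH1*, *NDI1* and *CIT1*, and *HAP1* to *HAP5*. *ATP14*, *ATP16*, *KGD1*, *KGD2* and *STF1*, and values of *COX1*, *IDH2*, *NDE1*, *OLI1* and *RIP1*, were added after their values were seen. Genes of the other lists were named where called, among them *NDE2*, whose array values were also given. The members and lists were chosen with earlier results of these data known. Alternatives left out the arrays in doubt, each array in turn, dim probe sets or the strains not compared, or changed the scaling, the weights and the variance model, averaged several probe sets of a gene, or added the replicate block. No genome sequence was used here, so no sequences are given. The place of *CYC7* beside *RAD23* was read from the gene order of the RefSeq annotation.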

Additional observations from a re-analysis of the deposited data

How the results depend on the processing

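Array weights had the largest effect on the number of the 47 genes called by limma. The planned estimate over all probe sets stopped short of convergence and gave 1 array, wildtype replicate 1, a weight of 11.5. With it 21 genes were called in *rad4Δrad23Δ* against wildtype, 13 against *rad23Δ* and 9 against *rad4Δ*, 7 in *rad23Δ* and 5 in *rad4Δ* against wildtype, and 11 for the interaction, where the unweighted fit called 0 each time. Weights estimated gene by gene, a choice made after seeing the data, gave 8, 13, 6, 2, 0 and 7 in the same order. The cause was not tested. Array weights also called 2359, 896, 882, 2357, 639 and 1016 of the 9275 probe sets in that order, and the gene-by-gene weights 827, 924, 344, 842, 1 and 332, so that in *rad23Δ* against wildtype the share of the 47 genes called (14.9%) was below that of all probe sets (25.4%).

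With both arrays in doubt (*rad4Δ* replicate 2 and wildtype replicate 3) removed, 1 gene was called in the double mutant against wildtype (*CYC7*) and 1 for the interaction (*CYT1*). The median difference was then 0.09 in the double mutant against wildtype, -0.18 in *rad4Δ* against wildtype and 0.42 for the interaction. A further quantile normalization, leaving out probe sets with a mean under 6 (45 of the 47 genes stayed) and a variance trend with robust estimation each gave 1 call in the double mutant against wildtype (*CIT1*, adjusted p = 0.0495, 0.0352 and 0.0447 in limma). Of all probe sets tested, 80, 60 and 63 were called in the same order, the second count being out of fewer probe sets. Over its 16 alternatives the adjusted p of *CIT1* ran between 0.000887 and 0.268. Against *rad4Δ* the quantile normalization called *COR1*, leaving out dim probe sets called *QCR7* and *COR1*, and the variance trend called *QCR7*. In the main fit of that comparison their adjusted p was 0.0508 (*QCR7*) and 0.0627 (*COR1*, both limma), with 71 of all probe sets called. How many of all probe sets these settings called there is not given here, so the calls cannot be set beside a general change.

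Leaving out each array in turn, the median in the double mutant against wildtype was between 0.09 (without wildtype replicate 3) and 0.31 (without wildtype replicate 2). Against *rad23Δ* it stayed between 0.20 and 0.27 and against *rad4Δ* between 0.21 and 0.29. It ran from -0.09 to 0.04 for *rad23Δ* against wildtype, from -0.09 to 0.03 for *rad4Δ* against wildtype and from 0.20 to 0.34 for the interaction. Calls ranged from 0 to 1 against *rad4Δ* (*QCR2* without *rad4Δ* replicate 1, *QCR7* without *rad4Δ* replicate 3). For the interaction they ranged from 0 to 1 (*QCR2* without *rad4Δ* replicate 1), and in the other comparisons they stayed at 0. The counts over all probe sets in these fits are not given here, so these calls too stand without that share.

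The replicate numbers were not used to pair the samples in the main fit. Deviations of same-numbered arrays correlated between -0.366 and 0.609, over 0.1 for 10 of 18 pairs. Arrays with different numbers were not correlated beside them, so these values cannot show whether the numbers pair the samples. With the replicate block 0 of the 47 genes were called in any comparison and the medians were as without it (0.20 in the double mutant against wildtype). The adjusted p of *CIT1* was then 0.0675. Among the differences named by the rule, none changed sign under any alternative, and 29 of the values obtained passed the threshold while 273 stayed on the same side of it. Part of the 29 came from the fits with array weights, which also called many more of all probe sets. *ATP7* in the double mutant and *QCR2* and *IDH1* in *rad4Δ*, each against wildtype, passed only with the planned array weights.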
